A study of Mus musculus with 13 samples.

Results

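Oxidative phosphorylation genes were followed across 13 libraries of eosinophils, from both of the genomes that encode them. Members were taken by name: rows starting with Nduf, Uqcr, Atp5, Cox4, Cox5, Cox6, Cox7 or Cox8, the rows Sdha to Sdhd and Cyc1, and rows starting with mt-Nd, mt-Co, mt-Atp or mt-Cytb, with names containing -ps left out. This gave 108 of the 41743 genes listed, and 101 of them had an RPKM (reads scaled to the length of the gene and to the depth of the library) of at least 1 in at least 2 libraries. Of these, 88 were encoded in the nucleus, on 19 chromosomes, and 13 in the mitochondrial DNA. No measured value entered this rule beyond that minimum, but the rule was set with earlier results of these data known. The 7 members under the minimum were Ndufa4l2, Cox4i2, Cox6a2, Cox7b2, Cox8b, Cox8c and Atp5o_1, and 4 of these, Cox7b2, Cox8b, Cox8c and Atp5o_1, were listed at 0 in every library. Ndufb1-ps, the row dropped for its name, ranged between 61.5 and 302 RPKM with a mean of 101.

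Eosinophils, CD11b+ Siglec-F+ cells sorted by flow cytometry, came from 5 groups of mice on the C57BL/6N background. Thymic eosinophils of Rag-KO mice, which lack the recombinase needed for T and B cell receptors and so have no mature T or B cells, were taken at day 10 after anti-CD3 antibody (Rag-KO + anti-CD3, 2 libraries, both Rag2-/-) or after hamster IgG (Rag-KO + control, 2 libraries, replicate 1 from Rag2-/- and replicate 2 from Rag1-/-). Untreated wild-type (WT) mice gave thymic, lung and splenic eosinophils (3 libraries each). The cells of thymus and lung were released by enzyme digestion and those of spleen by mashing, so for spleen the organ cannot be told apart from the way it was prepared. The study asked what sets thymic eosinophils apart from those of other organs, and whether anti-CD3, which drives thymocytes past the pre-T cell receptor stage, alters thymic eosinophils in Rag-KO mice. The mice were adult, and the labels do not say that replicates came from separate animals, so the p-values below measure the spread between these libraries only.

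Oxidative phosphorylation makes ATP at the inner mitochondrial membrane. Complexes I and II pass electrons to ubiquinone, complex III passes them through cytochrome c to complex IV, which reduces oxygen, and the protons moved by complexes I, III and IV drive ATP synthase, complex V. The mitochondrial DNA encodes some subunits of each of these except complex II. It is transcribed as long polycistronic RNAs that are cut into shorter RNAs, and depends on nuclear genes for every protein of its expression. Granulocytes are generally held to rely strongly on glycolysis.

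Neighbouring mitochondrial genes share bases, which bears on how their reads can be divided. In the GENCODE vM21 annotation, mt-Atp8 and mt-Atp6, both subunits of ATP synthase, overlap by 43 bases on the plus strand, which is 21.1% of mt-Atp8. The genes mt-Nd4l and mt-Nd4, both complex I subunits, overlap by 7 bases, mt-Atp6 and mt-Co3 by 1 base, and mt-Nd5 and mt-Nd6 by 14 bases on opposite strands. The last bases of the upstream gene and the first bases of the downstream gene are shown because they mark where a read cannot be given to a single gene, with the shared bases in capitals and 30 further bases of each gene in lower case (chrM, plus strand, from the GENCODE transcripts).
mt-Atp8, chrM:7897-7969: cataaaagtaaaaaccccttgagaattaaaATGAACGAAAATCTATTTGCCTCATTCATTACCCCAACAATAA
mt-Atp6, chrM:7927-7999: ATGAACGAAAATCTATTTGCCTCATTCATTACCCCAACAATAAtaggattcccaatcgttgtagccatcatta
mt-Nd4l, chrM:10137-10173: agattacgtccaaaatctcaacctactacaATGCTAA
mt-Nd4, chrM:10167-10203: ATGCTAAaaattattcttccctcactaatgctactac
How reads in these bases were counted is not given in the sources used here, and neither is whether strand was used. The levels of mt-Atp8, mt-Nd4l and mt-Nd6 are therefore uncertain by at least that share. A read that only partly covers the shared bases also lies in both genes. If strand was not used, long transcripts of the opposite strand could add reads along the whole of mt-Nd6. Processed copies of several nuclear members also exist in the mouse genome, and reads could be divided between a member and its copies.

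For the nuclear members, promoter windows from 250 bases before to 50 bases after the gene start were read from RefSeq (GRCm38.p6), and 78 windows of 73 members were matched by symbol. The letters GCATGCG (or CGCATGC), the core of the site of nuclear respiratory factor 1 (NRF1), stood in 13 of the 78 windows (16.7%), against 3.58% of all 32851 windows. The letters CCGGAAG (or CTTCCGG), bound by ETS factors such as GABP, stood in 19 windows (24.4%), against 8.86% of all windows. The letters AGATGGC (or GCCATCT), bound by YY1, stood in 12 windows (15.4%), against 6.40%. Both strands were searched, 0 of the 78 windows held 2 different motifs that overlapped, and a match is a description of letters only. The windows of Ndufa5, which differed between thymus and lung, of Cox6a1, the nuclear member with the highest mean RPKM, of Ndufaf5, a complex I assembly factor, and of Sdhd, which varied least of the nuclear members with a mean of at least 10 RPKM, are shown with these motifs in capitals.
Ndufa5, chr6:24527477-24527776, minus strand: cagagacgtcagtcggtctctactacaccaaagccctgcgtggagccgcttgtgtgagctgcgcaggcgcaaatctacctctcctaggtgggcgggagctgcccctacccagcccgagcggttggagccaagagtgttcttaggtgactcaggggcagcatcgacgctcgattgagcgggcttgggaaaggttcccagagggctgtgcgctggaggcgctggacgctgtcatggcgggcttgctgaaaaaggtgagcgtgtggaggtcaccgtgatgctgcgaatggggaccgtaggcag
Cox6a1, chr5:115348909-115349208, minus strand: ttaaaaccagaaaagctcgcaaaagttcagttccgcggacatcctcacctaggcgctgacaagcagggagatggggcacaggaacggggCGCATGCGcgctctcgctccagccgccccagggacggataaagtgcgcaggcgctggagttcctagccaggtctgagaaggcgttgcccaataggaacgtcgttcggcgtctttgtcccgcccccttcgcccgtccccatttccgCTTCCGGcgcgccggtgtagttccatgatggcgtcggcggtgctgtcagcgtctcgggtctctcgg
Ndufaf5, chr2:140170396-140170695, plus strand: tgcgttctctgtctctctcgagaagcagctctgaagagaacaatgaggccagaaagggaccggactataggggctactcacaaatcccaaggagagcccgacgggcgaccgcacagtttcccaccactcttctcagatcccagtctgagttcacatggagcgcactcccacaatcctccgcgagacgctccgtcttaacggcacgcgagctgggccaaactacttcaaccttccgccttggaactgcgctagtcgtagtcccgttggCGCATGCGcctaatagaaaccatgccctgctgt
Sdhd, chr9:50603800-50604099, minus strand: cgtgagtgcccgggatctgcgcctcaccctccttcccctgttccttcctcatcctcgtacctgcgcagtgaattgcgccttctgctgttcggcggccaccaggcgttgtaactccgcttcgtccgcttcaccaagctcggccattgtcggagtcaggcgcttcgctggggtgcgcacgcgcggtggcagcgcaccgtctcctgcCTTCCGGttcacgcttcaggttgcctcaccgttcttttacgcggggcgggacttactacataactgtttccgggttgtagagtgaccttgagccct
Cox6a1 held both the NRF1 and the ETS letters, Ndufaf5 held the NRF1 letters, Sdhd held the ETS letters, and neither of the windows matched to Ndufa5 held any of the 3 motifs.

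The libraries held between 4765122 and 6431539 mapped reads, recovered from RPKM values that are whole multiples of what 1 read is worth. All 13 mitochondrial members gave whole reads by this measure, so their counts are known: the lowest was 25 reads for mt-Nd6 in WT thymus replicate 3, and the highest 132614 reads for mt-Co3 in WT spleen replicate 3. Of the 12 eosinophil markers listed, Ccr3 (483 to 1185 RPKM) and Siglecf (73.4 to 466 RPKM) were present in every library. Others varied more, with Epx at 0.0780 to 340 RPKM, Prg3 at 0.401 to 219 RPKM and Prg2 at 32.9 to 3648 RPKM. All of these were highest in Rag-KO + control replicate 2. Il5ra (7.98 RPKM), Itgam (56.7 RPKM) and Alox15 (236 RPKM) were each lowest in WT spleen replicate 3. The 12 markers summed to 4325 to 4979 RPKM in Rag-KO + anti-CD3 and 4436 to 8448 RPKM in Rag-KO + control. Their sum was 3552 to 4754 RPKM in WT thymus, 2469 to 3411 RPKM in WT lung and 2339 to 3380 RPKM in WT spleen. Of 6 neutrophil markers, the summed level was 226 and 2274 RPKM in the Rag-KO + control replicates 1 and 2, 526 RPKM in WT thymus replicate 3 and 4732 RPKM in WT spleen replicate 3, and it was between 0.690 and 16.1 RPKM in the other 9 libraries. The 12 thymocyte and T cell markers summed to between 30.9 and 34.03 RPKM in Rag-KO + anti-CD3, between 3.06 and 7.08 RPKM in Rag-KO + control and between 13.7 and 61.8 RPKM in WT thymus. WT spleen replicate 3 stood apart from all the others: 7727 genes reached 1 RPKM in it, against 8363 to 8905 elsewhere. The comparisons with WT spleen are given with and without it. In sorted bulk cells, fewer cells of a type and less RNA per cell cannot be told apart.

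The 13 mitochondrial members together took between 1.602% and 6.02% of all RPKM in 12 of the libraries, and 22.0% in WT spleen replicate 3. The summed mitochondrial level was 12051 and 12687 RPKM in Rag-KO + anti-CD3, 9757 and 6383 RPKM in Rag-KO + control, 14049, 8942 and 8506 RPKM in WT thymus, 19863, 17667 and 23421 RPKM in WT lung, and 16379, 10641 and 92796 RPKM in WT spleen. Lung was above thymus in every library, and both anti-CD3 libraries were above both control libraries.

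The summed nuclear level was 5799 and 6402 RPKM in Rag-KO + anti-CD3, 6639 and 8510 RPKM in Rag-KO + control, 7508, 8055 and 8915 RPKM in WT thymus, 6306, 5397 and 6997 RPKM in WT lung, and 6857, 7087 and 11202 RPKM in WT spleen. Here the order was turned round, with WT thymus above WT lung in every library and both anti-CD3 libraries below both control libraries. The nuclear members took a narrow share of all RPKM, between 1.54% and 2.66%.

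The ratio of the mitochondrial to the nuclear sum was 2.08 and 1.98 in Rag-KO + anti-CD3 (mean 2.03 ± 0.0681, SD, n = 2), 1.47 and 0.7501 in Rag-KO + control (1.11 ± 0.509, n = 2), 1.87, 1.11 and 0.954 in WT thymus (1.31 ± 0.491, n = 3), 3.15, 3.27 and 3.35 in WT lung (3.26 ± 0.0996, n = 3), and 2.39, 1.501 and 8.28 in WT spleen (4.06 ± 3.69, n = 3). In order of their means the groups ran from Rag-KO + control through WT thymus, Rag-KO + anti-CD3 and WT lung to WT spleen. Rag-KO + control and WT thymus overlapped. WT spleen overlapped both WT thymus and WT lung, and its range held both Rag-KO + anti-CD3 libraries. The SD was smallest in Rag-KO + anti-CD3 and WT lung. Without replicate 3, WT spleen averaged 1.95, below WT lung and with its lowest library inside the range of WT thymus. Sums over members carry no test here.

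**Figure D1:**
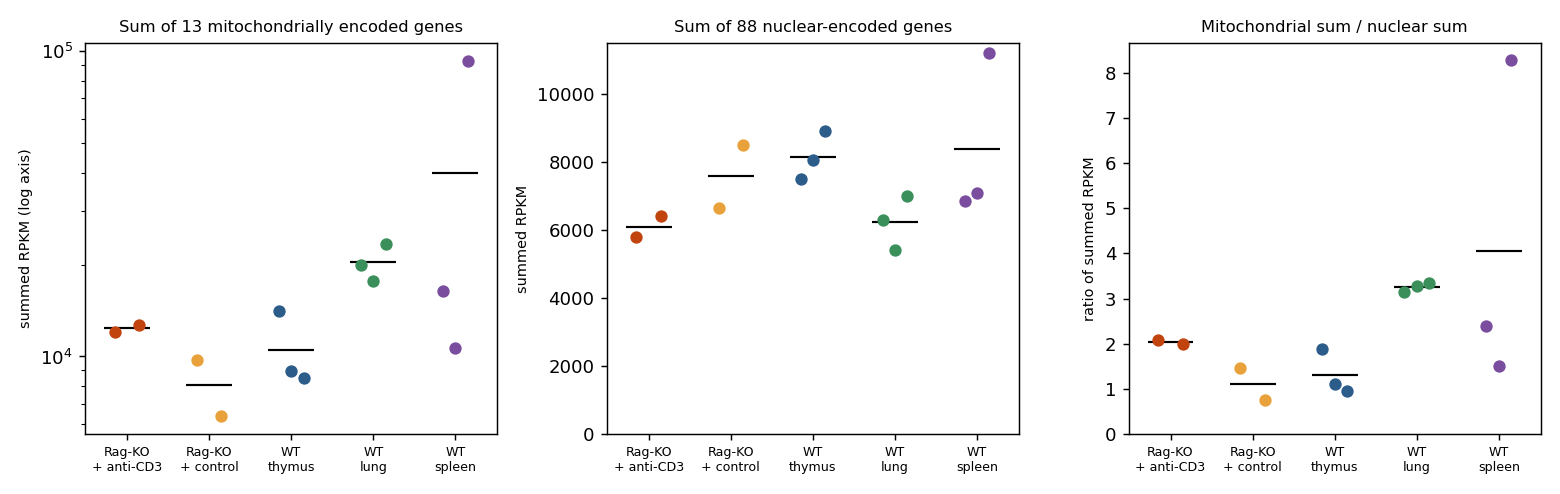
Summed RPKM of the 13 mitochondrially encoded members (left, log axis), of the 88 nuclear-encoded members (middle) and their ratio (right); points are libraries and lines are group means. The 3 WT lung libraries lie at ratios of 3.15 to 3.35, above WT thymus at 0.954 to 1.87, and WT spleen replicate 3 lies alone at 8.28.

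Among the mitochondrial genes, levels per length differed widely. The cytochrome c oxidase core subunits mt-Co3, mt-Co2 and mt-Co1, which hold the oxygen-reducing centre of complex IV or support it, averaged 5316, 2913 and 2857 RPKM over the 13 libraries, and mt-Atp6, the proton channel subunit of ATP synthase, averaged 3804 RPKM. The ATP synthase subunit mt-Atp8 averaged 607 RPKM, and mt-Cytb, the cytochrome b of complex III, averaged 1192 RPKM. The complex I subunits all averaged below mt-Cytb: mt-Nd1 averaged 1036, mt-Nd3 733, mt-Nd4 511, mt-Nd2 272, mt-Nd4l 110 and mt-Nd5 101 RPKM. The lowest was mt-Nd6, the only member on the other strand of the mitochondrial DNA, at 21.0 RPKM. The means of mt-Co3, mt-Nd3 and mt-Nd1 rest largely on WT spleen replicate 3, where they stood at 35498, 5244 and 5274 RPKM. The 24 mitochondrial rRNA and tRNA genes were listed at 0 in every library.

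**Figure D2:**
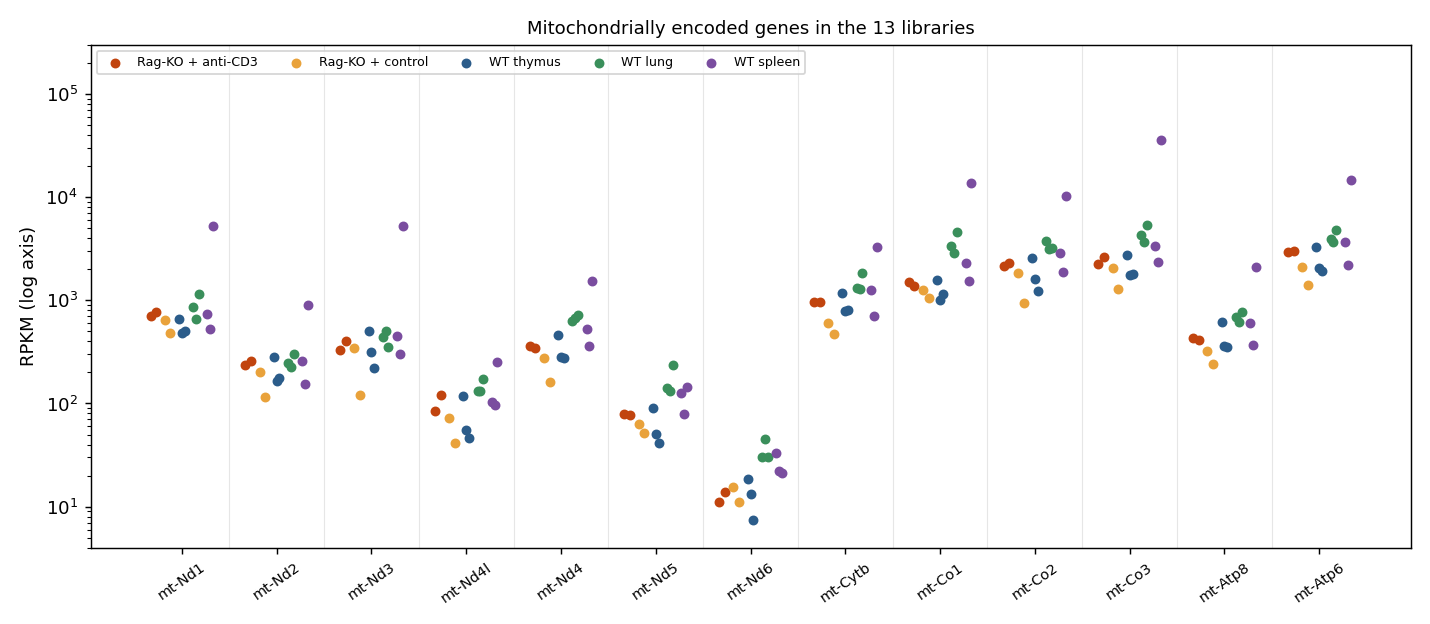
RPKM (log axis) of each mitochondrially encoded member in the 13 libraries, coloured by group. WT lung lies above WT thymus for most genes, and WT spleen replicate 3 stands high for mt-Co3 at 35498 RPKM and mt-Nd3 at 5244 RPKM but not for mt-Nd6 at 21.4 RPKM.

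The makeup of the mitochondrial sum also differed between organs. The complex IV genes took 49.0%, 48.9% and 49.1% of it in WT thymus, against 57.5%, 55.0% and 55.8% in WT lung and 52.4%, 54.6% and 64.1% in WT spleen. The ranges of WT thymus and of each other organ did not overlap. In Rag-KO mice the share was 49.0% and 49.9% with anti-CD3 and 52.5% and 51.3% with control IgG. In WT spleen replicate 3 the genes did not move together. Relative to the mean of WT spleen replicates 1 and 2, mt-Nd3 was 13.98-fold and mt-Co3 12.3-fold as high there, while mt-Nd5 was 1.38-fold and mt-Nd6 0.774-fold as high. The ratio of mt-Co3 to mt-Nd5 was 248 in that library and between 22.3 and 43.3 in the other 12.

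The nuclear members were described by complex. Among the 36 nuclear subunits of complex I, the entry point of electrons from NADH, the highest by mean RPKM were Ndufa6 (186), Ndufb7 (158), Ndufb9 (127) and Ndufa3 (124), and the lowest were Ndufb2 (5.002) and Ndufa10 (6.84). Complex II, succinate dehydrogenase, links the chain to the citric acid cycle. Its genes averaged 81.9 RPKM for Sdhd, 80.02 for Sdhb, 72.3 for Sdha and 20.2 for Sdhc. Sdhd, a membrane anchor, had the narrowest range of the 77 nuclear members with a mean of at least 10 RPKM, between 70.3 and 90.7 RPKM. It was followed by Ndufs1 (14.4 to 21.1 RPKM), which carries iron-sulfur clusters of complex I, and by Ndufa2 (81.3 to 139), Atp5o_2 (32.5 to 56.1) and Ndufb7 (127 to 236).

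In complex III the highest were Uqcrb (187), Uqcr10 (144), Uqcrh (140) and Uqcrc1 (102), and the lowest Uqcrq (25.8) and Cyc1 (27.2), which encodes cytochrome c1. In complex IV the highest were Cox6a1 (469), Cox8a (353), Cox6b1 (262) and Cox4i1 (238). In ATP synthase the catalytic subunit gene Atp5b averaged 337 RPKM, followed by Atp5l (264), Atp5g3 (196) and Atp5h (192), and the lowest were Atp5g1 (13.5) and Atp5g2 (33.1). These last 2 and Atp5g3 encode the same c-ring protein from 3 genes, and Atp5g3 was the highest of them in each group. The 8 complex I assembly factors were low. The highest were Ndufaf8 (18.3), Ndufaf3 (10.7), Ndufaf1 (7.81) and Ndufaf5 (4.87), and the lowest Ndufaf4 (1.40) and Ndufaf2 (0.737).

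Where complex IV has isoforms, the widely expressed one was the higher in these cells. Cox6a1 averaged 469 RPKM and the muscle isoform Cox6a2 0.0929 RPKM, Cox4i1 averaged 238 RPKM and the hypoxia and lung isoform Cox4i2 0.155 RPKM, and Cox7a2 averaged 172 RPKM and the muscle isoform Cox7a1 2.33 RPKM. Cox6b1 averaged 262 RPKM and the testis isoform Cox6b2 0.720 RPKM. Ndufa4, a complex IV subunit, averaged 172 RPKM and its hypoxia-induced relative Ndufa4l2 0.133 RPKM. The other nuclear members counted with complex IV by name averaged 156 RPKM for Cox5a, 126 for Cox6c, 93.0 for Cox7c, 61.7 for Cox7a2l, 53.1 for Cox7b and 52.5 for Cox5b.

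Of the nuclear members with a mean of at least 10 RPKM, those with the widest range were Ndufc2 (34.5 to 208 RPKM), Ndufa5 (4.54 to 27.5), Ndufa1 (23.5 to 123), Atp5k (20.9 to 107) and Cox7c (42.3 to 207). WT lung replicate 3 was the lowest library for Ndufa5, Ndufa1, Atp5k and Cox7c, and WT spleen replicate 3 the highest for Ndufc2 and Cox7c. That spleen library was the highest of all 13 for 44 of the 88 nuclear members and for 11 of the 13 mitochondrial members, against 9.91% of all genes tested. Relative to WT spleen replicates 1 and 2, nuclear members had a median log2 difference of 0.57 in it, against -0.70 over all 9096 genes. The catalytic complex II genes went the other way. Sdhb was 0.373-fold and Sdha 0.437-fold as high as in the other spleen libraries, while Sdhc and Sdhd reached their highest values there, and complex II took 1.77% of the nuclear sum, against 3.06% to 4.36% elsewhere. Neutrophil markers were highest in this library, and their part in these differences was not tested.

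**Figure D3:**
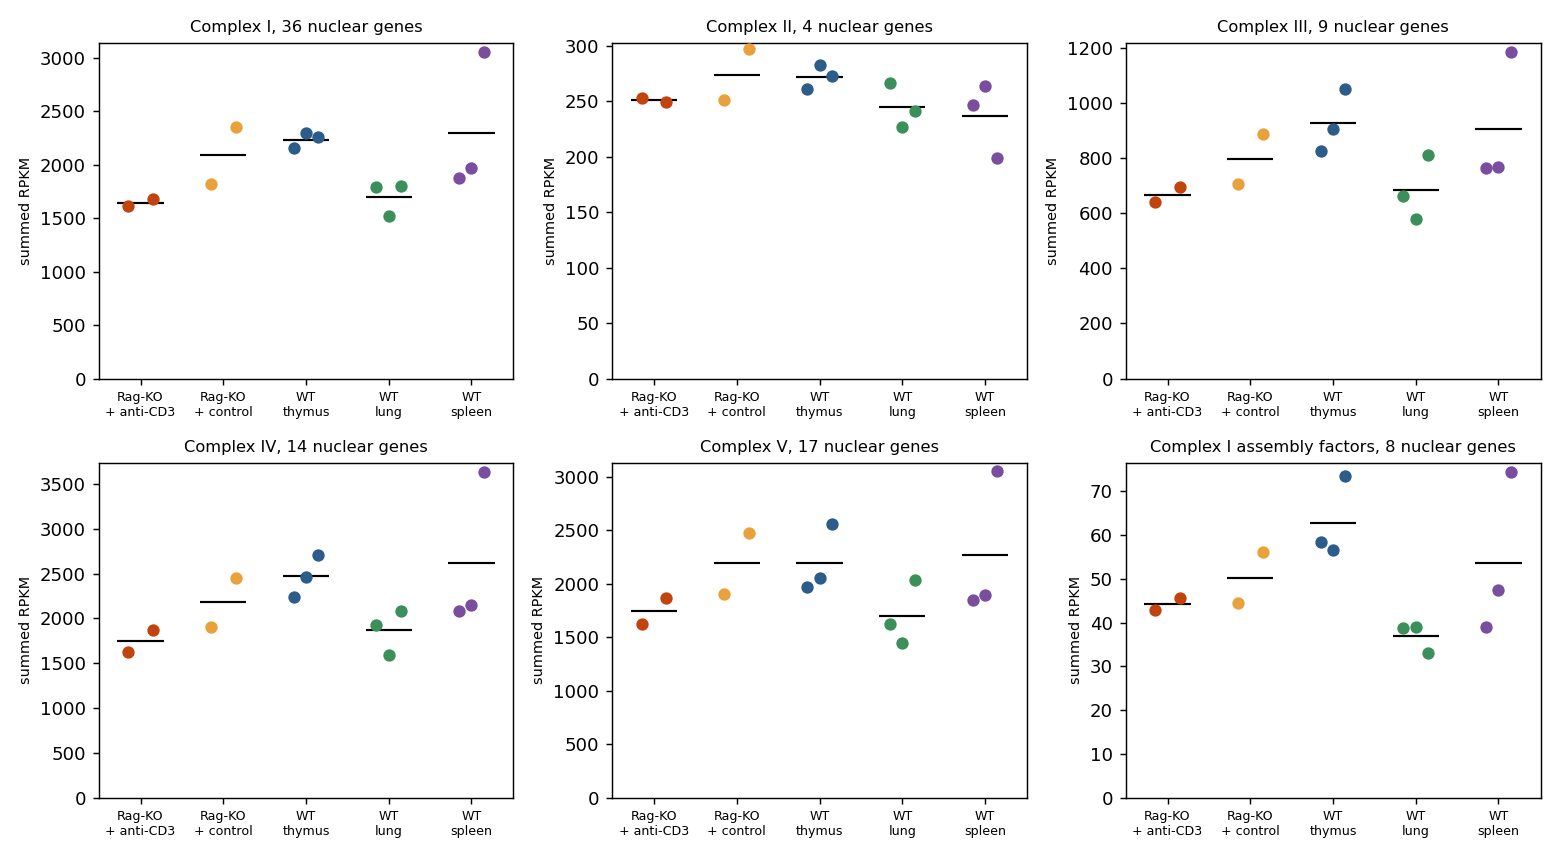
Summed RPKM of the nuclear-encoded members of each complex and of the complex I assembly factors; points are libraries and lines are group means. Each panel but that of complex II shows WT spleen replicate 3 at the top, and the assembly factors lie at 56.5 to 73.5 RPKM in WT thymus and 33.1 to 39.1 RPKM in WT lung.

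Between WT thymus and WT lung, nuclear members were mostly higher in thymus and mitochondrial members lower. Fold changes here and below are on the scale of log2(RPKM + 1), fitted with limma. The WT organs were fitted over all genes that reached 1 RPKM in at least 3 of the WT libraries. The Rag-KO comparisons were fitted over all genes that reached 1 RPKM in at least 2 of the 13 libraries. Calls needed a log2 fold change beyond 1 in either direction together with a Benjamini-Hochberg p below 0.05. The 87 nuclear members tested had a median log2 fold change of 0.39, with 80 of them above 0, against a median of 0.20 over all 9096 genes tested, 67.9% of which were above 0. The 13 mitochondrial members had a median of -0.97 and none was above 0. Under upper-quartile scaling the median of all genes moved to 0.05, and 65 nuclear members and 54.8% of all genes were then above 0.

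Only 1 of the 100 members tested was called in this comparison, against 3.24% of all genes. This was Ndufa5, a subunit of the arm of complex I that reaches into the matrix (ENSMUSG00000023089, chr6:24518666-24528013, minus strand in GRCm38). Ndufa5 stood at 22.3, 26.3 and 18.1 RPKM in WT thymus, against 7.12, 9.79 and 4.54 RPKM in WT lung. The groups did not overlap, and the log2 fold change was 1.55 (SE 0.31, limma adjusted p = 0.0283). In WT spleen it stood at 15.4, 18.6 and 23.5 RPKM, near the thymic level. The call was lost when WT thymus replicate 1, 2 or 3 or WT lung replicate 1 or 3 was left out (limma adjusted p between 0.0672 and 0.163) and under upper-quartile scaling (0.0827) or quantile normalization (0.0561). Under those scalings mt-Nd6 was called, lower in thymus (limma adjusted p = 0.0360 with upper-quartile scaling and 0.0262 with quantile normalization), and quantile normalization also called mt-Nd5, lower (0.0443), against 3.47% of all genes called under upper-quartile scaling and 4% under quantile normalization.

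WT spleen replicate 3 belongs to neither organ compared but enters the estimate of spread, and without it 9 members were called, against 7.29% of all genes. These were Ndufa5, Ndufa12, Ndufaf5 and Ndufaf6, higher in thymus, and mt-Co1, mt-Co3, mt-Nd4, mt-Nd5 and mt-Nd6, lower in thymus. With the replicate number as a block, 4 members were called, against 5.08% of all genes: Ndufa5 and Ndufaf5 higher, and mt-Nd5 and mt-Nd6 lower. A Dunnett test on RPKM was run at p under 0.05 without adjustment over genes and a fold beyond 2. It called 5 members, against 8.01% of all genes: Ndufa5, Ndufaf2 and Ndufaf6 higher, and mt-Nd5 and mt-Nd6 lower. Ndufaf2 rested on few reads, 19, 34 and 24 in WT thymus and 11, 2 and 7 in WT lung.

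The values of these members lay apart in most cases. The catalytic subunit gene mt-Co1 (ENSMUSG00000064351, chrM:5328-6872) stood at 1565, 1017 and 1138 RPKM in WT thymus, against 3350, 2876 and 4545 RPKM in WT lung, with a log2 fold change of -1.53 (limma adjusted p = 0.338, or 0.00811 without WT spleen replicate 3). mt-Nd5, a membrane-arm subunit of complex I, stood at 89.7, 51.2 and 41.7 RPKM in WT thymus, against 141, 132 and 238 RPKM in WT lung, and its log2 fold change was -1.49 (limma adjusted p = 0.0725, or 0.0245 without that library). mt-Nd6 stood at 18.4, 13.3 and 7.49 RPKM in WT thymus, against 30.02, 45.3 and 30.6 RPKM in WT lung, on 25 to 129 reads. No thymic library reached any lung library for these 3 genes.

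Ndufaf5, an assembly factor that modifies a complex I subunit, stood at 6.94, 4.90 and 14.1 RPKM in WT thymus, against 2.38, 1.56 and 1.78 RPKM in WT lung, with a log2 fold change of 1.63 (limma adjusted p = 0.0626). As a group, all 8 assembly factors were above 0 on the log2 scale, with a median of 0.66 that was the highest of the nuclear groups. Complex III had a median of 0.61, complex I and complex V 0.39 each, complex IV 0.28 and complex II 0.11. Counted by libraries that do not overlap, 36 of 87 nuclear members were higher in thymus, against 22.9% of all genes, and 11 of 13 mitochondrial members were lower, against 7.55%. The 2 mitochondrial members that overlapped were mt-Nd2 and mt-Nd3.

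**Figure D4:**
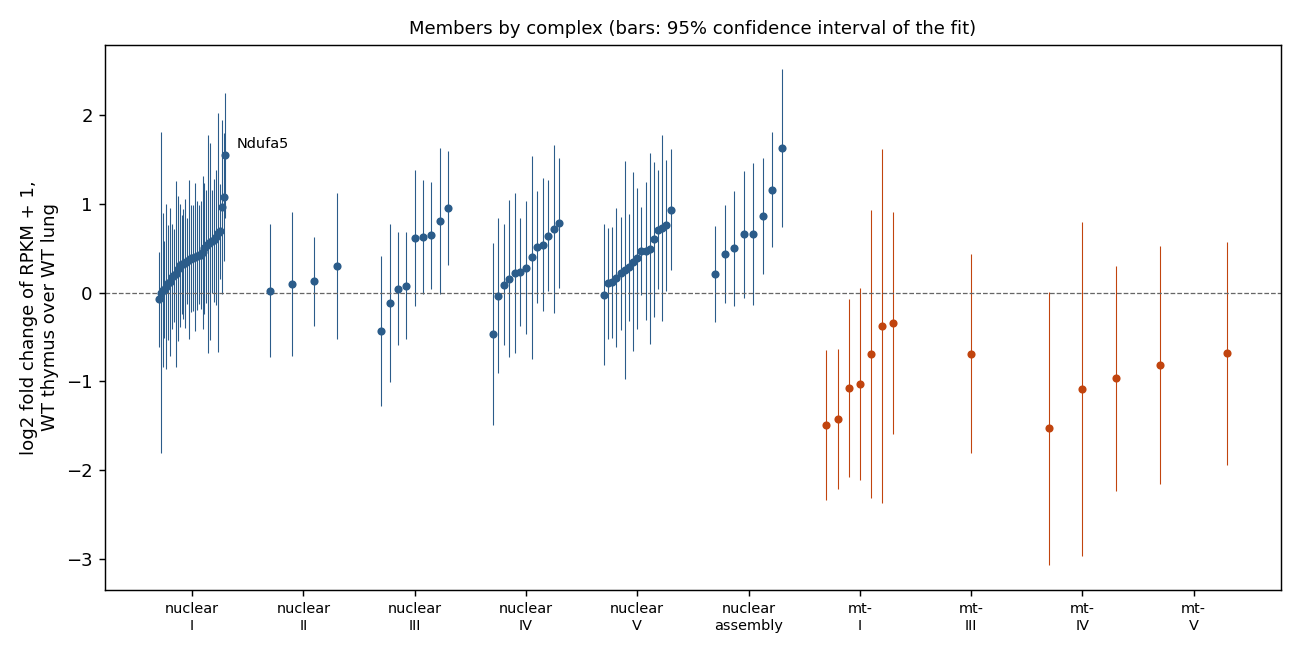
Log2 fold change of RPKM + 1, WT thymus over WT lung, for the 100 members tested, by complex and by genome; bars are 95% confidence intervals of the fit. Nuclear members lie mostly above 0, with Ndufa5 at 1.55 marked, and all 13 mitochondrial members lie below 0.

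Markers of other cells also differed between these organs. The 6 endothelial and epithelial markers summed to 11.7 to 38.3 RPKM in WT thymus, where Sftpc and Scgb1a1 were listed at 0 in every library, against 54.0 to 119 RPKM in WT lung. The 12 thymocyte and T cell markers summed to 13.7 to 61.8 RPKM in WT thymus, against 0.761 to 1.68 RPKM in WT lung, where 6 of them were listed at 0 throughout. The erythroid markers summed to 26.6 to 130 RPKM in WT thymus and 129 to 370 RPKM in WT lung and overlapped. The part of these cells in the differences between thymus and lung was not tested.

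Taken within replicate numbers, the signs of both medians were the same in the 2 sets of libraries. The median of the mitochondrial members was -0.69 over replicates 1 and 2 and -1.38 in replicate 3, and none of the 13 was above 0 in either set. The median of the nuclear members was 0.41 and 0.36, against 0.16 and 0.26 for all genes.

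Between WT thymus and WT spleen, none of the 100 members was called by limma, against 2.29% of all genes, 6 had an unadjusted p under 0.05, against 11.8% of all genes, and none was called by a Dunnett test on RPKM, against 5.67% of all genes. The nuclear members had a median log2 fold change of 0.04, against 0.25 over all genes, and the mitochondrial members -1.02. Both values rest on WT spleen replicate 3. Without it the nuclear median was 0.21, with 68 of 87 above 0, against 0.01 over all genes, 51.3% of which were above 0, so the nuclear median stood above that of all genes and not below it. No member was called by limma without it either, and 13 had an unadjusted p under 0.05, 12 of them higher in thymus, against 15.1% of all genes in either direction. The mitochondrial median was then -0.41. Over replicates 1 and 2 alone it was -0.21, with 4 of the 13 above 0. mt-Nd6 was the only mitochondrial member whose libraries did not overlap and were lower in thymus, against 4.56% of all genes, at 18.4, 13.3 and 7.49 RPKM in WT thymus, against 33.0, 22.4 and 21.4 RPKM in WT spleen. Ndufa8, a complex I subunit, stood at 102, 94.7 and 109 RPKM in WT thymus, against 74.7, 78.5 and 51.2 RPKM in WT spleen, and was among 7 nuclear members (8.05% of 87) that did not overlap and were higher in thymus, against 16.4% of all genes. Without WT spleen replicate 3, 35 nuclear members did not overlap and were higher, against 22.1% of all genes, 4 nuclear members were lower, against 18.2%, and mt-Nd6 was again the only mitochondrial member. Thymocyte and T cell markers summed to 13.7 to 61.8 RPKM in WT thymus, against 1.36 to 2.86 RPKM in WT spleen, and B cell markers to 6.12 to 9.40 RPKM in WT thymus, against 10.9 to 46.0 RPKM in WT spleen. The part of these cells in the differences was not tested.

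Between WT lung and WT spleen no member was called by limma, against 0.704% of all genes, and 7 had an unadjusted p under 0.05, all of them nuclear and lower in lung, against 5.66% of all genes in either direction and 3.07% lower. The nuclear members had a median of -0.35, with 12 of 87 above 0, against a median of 0.07 over all genes, 57.5% of which were above 0. The mitochondrial members had a median of -0.17, which turned to 0.52 without WT spleen replicate 3. Over replicates 1 and 2 all 13 were above 0, with a median of 0.44. Without that library the nuclear median was -0.15, with 15 of 87 above 0, against -0.18 over all genes, 27.9% of which were above 0, so the nuclear median then lay close to that of all genes. No member was called by limma without it, and 5 had an unadjusted p under 0.05, 3 of them lower in lung, against 9.09% of all genes in either direction. Ndufa5 had the lowest value, with a log2 fold change of -1.34 (limma adjusted p = 0.162). The libraries of 19 nuclear members did not overlap and were lower in lung, against 6.38% of all genes. Without WT spleen replicate 3 there were 25, against 25.3% of all genes, and 8 mitochondrial members did not overlap and were higher in lung, against 6%. Endothelial and epithelial markers summed to 54.0 to 119 RPKM in WT lung, against 1.42 to 21.9 RPKM in WT spleen. Macrophage markers summed to 0.872 to 19.9 RPKM in WT lung, against 28.8 to 69.6 RPKM in WT spleen, B cell markers to 4.41 to 9.70 RPKM in WT lung, against 10.9 to 46.0 RPKM in WT spleen, and neutrophil markers to 0.856 to 3.61 RPKM in WT lung, against 5.53 to 4732 RPKM in WT spleen. Their part in the differences was not tested.

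In Rag-KO mice given anti-CD3, mitochondrial members stood above and nuclear members below the Rag-KO + control libraries, without any call. None of the 101 members was called by limma, against 0.133% of all 9763 genes tested, and none had an unadjusted p under 0.05, against 5.22% of all genes. The median log2 fold change was 0.68 for the 13 mitochondrial members, 12 of which were above 0, and -0.30 for the 88 nuclear members, 16 of which were above 0, against -0.03 over all genes. Libraries did not overlap for 11 mitochondrial members that were higher, against 19.2% of all genes, and for 39 nuclear members that were lower, against 22.3%. As an example, mt-Co2, the complex IV subunit that takes electrons from cytochrome c, stood at 2155 and 2285 RPKM in Rag-KO + anti-CD3, against 1833 and 935 RPKM in Rag-KO + control. Cox5b, a nuclear subunit of the same complex, stood at 34.9 and 40.9 RPKM in Rag-KO + anti-CD3, against 48.1 and 71.3 RPKM in Rag-KO + control.

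Both differences were smaller without Rag-KO + control replicate 2, with medians of 0.29 for the mitochondrial and -0.14 for the nuclear members. That library is the only one from Rag1-/- mice, and its genotype and its place in the control group cannot be told apart. Across 9763 genes, its deviation from the mean of its group correlated with that of replicate 3 of WT thymus at 0.540, of WT spleen at 0.460 and of WT lung at 0.270 (a description across genes, in which the deviation of control replicate 1 is the mirror image). What these libraries share is not given in the labels, and its part in the difference between anti-CD3 and control was not tested. The 12 eosinophil markers summed to 4325 to 4979 RPKM in Rag-KO + anti-CD3, against 4436 to 8448 RPKM in Rag-KO + control. Of these, Prg2 stood at 477 and 345 RPKM in Rag-KO + anti-CD3, against 188 and 3648 RPKM in Rag-KO + control replicates 1 and 2. Neutrophil markers summed to 0.690 and 15.9 RPKM in the Rag-KO + anti-CD3 libraries, against 226 and 2274 RPKM in Rag-KO + control replicates 1 and 2. Endothelial and epithelial markers summed to 43.5 to 46.0 RPKM in Rag-KO + anti-CD3, against 6.19 to 34.2 RPKM in Rag-KO + control, nearly all of it from Pecam1, and the thymocyte markers above were also higher with anti-CD3. The part of these cells in the difference was not tested.

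Against WT thymus, the Rag-KO groups were compared in the same fit of 13 libraries, so both comparisons share the WT thymus libraries. For Rag-KO + anti-CD3, no member was called by limma, against 0.0819% of all genes, 5 nuclear members had an unadjusted p under 0.05, all lower, against 2.65% of all genes in either direction and 1.62% lower, and none was called by a Dunnett test, against 1.02%. The nuclear median was -0.39, with 11 of 88 above 0, and the mitochondrial median 0.25, against -0.01 over all genes. The mitochondrial value moved with each WT thymus library, to 0.46 without replicate 1, 0.13 without replicate 2 and 0.16 without replicate 3. Libraries did not overlap for 50 nuclear members that were lower, against 16.2% of all genes. Uqcrb, a complex III subunit, stood at 154 and 161 RPKM in Rag-KO + anti-CD3, against 233, 250 and 257 RPKM in WT thymus (log2 fold change -0.64, limma unadjusted p = 0.0463). Endothelial and epithelial markers summed to 43.5 to 46.0 RPKM in Rag-KO + anti-CD3, against 11.7 to 38.3 RPKM in WT thymus. Nearly all of both sums came from Pecam1 alone. B cell markers summed to 3.82 to 5.57 RPKM in Rag-KO + anti-CD3, against 6.12 to 9.40 RPKM in WT thymus. Their part was not tested.

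For Rag-KO + control against WT thymus, no member was called by limma, against 1.09% of all genes, 1 had an unadjusted p under 0.05, against 7.71% of all genes, and none was called by a Dunnett test, against 3.93%. The nuclear median was -0.07 and the mitochondrial median -0.39, against 0.00 over all genes. Without Rag-KO + control replicate 2 the mitochondrial median was 0.04. The member with the low p was Atp5mpl, a small ATP synthase subunit, at 83.9 and 66.4 RPKM in Rag-KO + control, against 107, 122 and 159 RPKM in WT thymus. In the Rag-KO + anti-CD3 libraries Atp5mpl stood at 67.7 and 84.5 RPKM. Neutrophil markers summed to 226 to 2274 RPKM in Rag-KO + control, against 1.82 to 526 RPKM in WT thymus, and overlapped. The eosinophil markers summed to 4436 to 8448 RPKM in Rag-KO + control, against 3552 to 4754 RPKM in WT thymus, and also overlapped. Thymocyte and T cell markers summed to 3.06 to 7.08 RPKM in Rag-KO + control, against 13.7 to 61.8 RPKM in WT thymus. B cell markers summed to 4.78 to 5.96 RPKM in Rag-KO + control, against 6.12 to 9.40 RPKM in WT thymus. Their part was not tested.

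**Figure D5:**
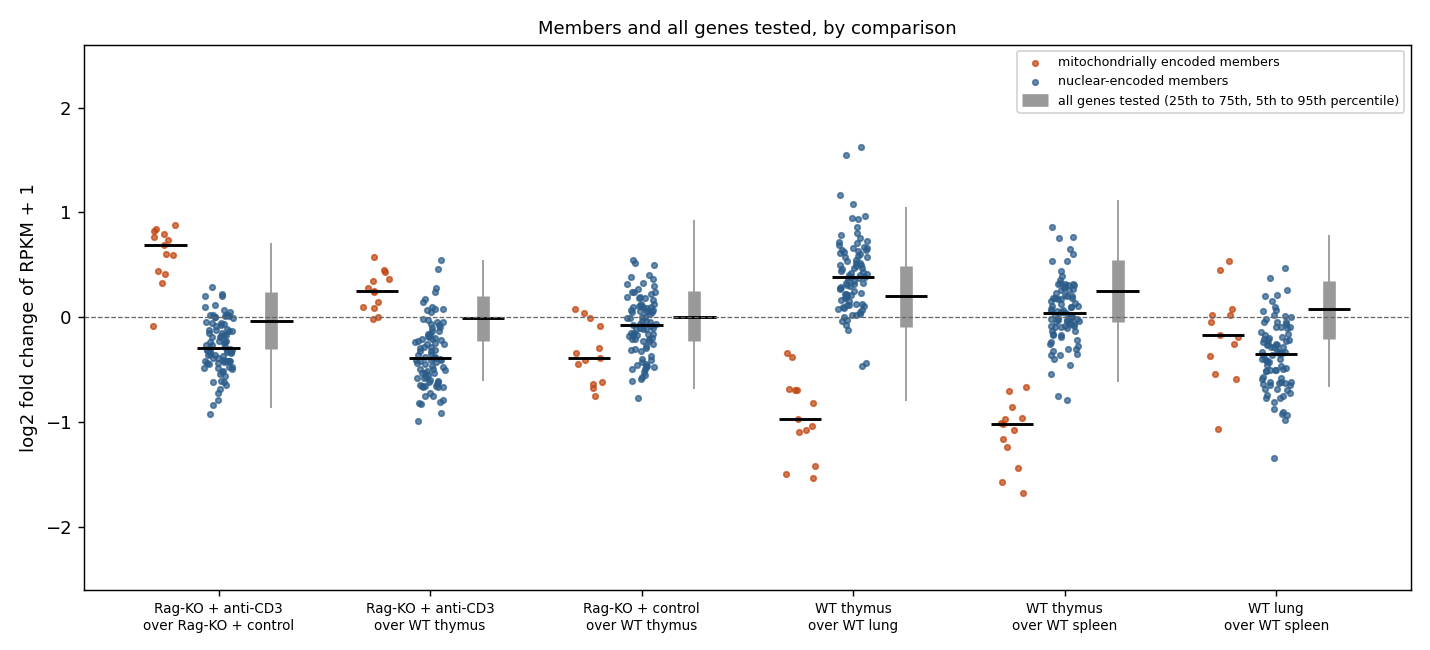
Log2 fold change of RPKM + 1 in 6 comparisons for mitochondrially encoded members, nuclear-encoded members and all genes tested; black lines are medians, and grey bars span the 25th to 75th and grey lines the 5th to 95th percentile of all genes. The medians of the mitochondrial and nuclear members lie on opposite sides of 0 in 4 of the comparisons, at -0.97 and 0.39 for WT thymus over WT lung.

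Other genes that serve the mitochondria were described for the same comparisons. Of 78 mitochondrial ribosomal protein genes, which build the ribosome that translates the 13 mitochondrial members, 72 were above 0 between WT thymus and WT lung, with a median of 0.49, and 1 was called, against 67.9% of all genes above 0 and 3.24% called. This was Mrpl41, a large-subunit protein, at 38.9, 40.8 and 36.4 RPKM in WT thymus, against 17.3, 20.1 and 10.2 RPKM in WT lung (log2 fold change 1.28, limma adjusted p = 0.0429). Its WT spleen libraries stood at 15.2, 19.3 and 15.1 RPKM. The highest of these genes by mean were Mrps21, of the small subunit, at 116 RPKM and Mrpl33, of the large subunit, at 56.3 RPKM. Of 27 genes tested in the WT fit (29 in the fit of 13 libraries) for transcription, processing and upkeep of mitochondrial RNA and DNA, none was called in any of the 6 comparisons by limma, and in thymus over lung 9 had an unadjusted p under 0.05, all higher, against 10.9% of all genes. Their median there was 0.36, with 23 of the 27 above 0. The highest were Hsd17b10, part of mitochondrial RNase P, at a mean of 27.3 RPKM and the RNA-binding protein gene Grsf1 at 14.2 RPKM.

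Other assembly factors and electron carriers also had a median above that of all genes in thymus over lung, at 0.42 against 0.20. Of 36 tested, 34 were above 0, none was called, and 9 had a limma unadjusted p under 0.05, all higher. Over all genes 67.9% were above 0, 3.24% were called, and 10.9% were higher at that p. The highest were Coa3, which serves the assembly of complex IV, at a mean of 87.4 RPKM and Atpif1, the inhibitor of ATP synthase, at 72.5 RPKM. The 18 citric acid cycle genes had a median of 0.30, with 12 above 0 and none called. Their share above 0 lay near the 67.9% of all genes. A limma unadjusted p under 0.05 was reached by 2 of them, both higher, against 10.9% of all genes. Mdh2, mitochondrial malate dehydrogenase, was the highest of them, at 194, 221 and 295 RPKM in WT thymus, against 432, 282 and 350 RPKM in WT lung, followed by the isocitrate dehydrogenase subunit Idh3g at a mean of 50.9 RPKM. Of the transcriptional regulators listed, 6 were tested and none was called. Their median in thymus over lung was 0.04, with 3 above 0, and so lay below the 0.20 of all genes. The highest were Gabpa, the DNA-binding part of GABP, at a mean of 14.0021 RPKM, and the nuclear receptor Esrra at 12.97 RPKM. The nucleotide exchangers and uncoupling proteins were led by Slc25a5, an ADP/ATP exchanger, at a mean of 287 RPKM, and Ucp2 at 207 RPKM, and none of the 7 tested was called. In thymus over lung the median of these 7 was -0.13, with 2 above 0, and so also lay below that of all genes. Across the motif groups, the median log2 fold change of thymus over lung was 0.58 for the 13 members with the NRF1 letters and 0.39 for the 59 without them, 0.35 with and 0.40 without the ETS letters, and 0.30 with and 0.40 without the YY1 letters.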

How the data were processed

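Sorted eosinophils were profiled by RNA-seq (SMART-seq v4 cDNA, Ion Proton). The authors mapped and counted reads in CLC Genomics Workbench and deposited RPKM values, 1 column per library; the submitters' processing notes name mm10, and the counting settings are not given in the sources used here. A linear model with a mean per group was fitted to log2(RPKM + 1) by limma (version 3.58.1, R 4.3.3), using an intensity trend and Benjamini-Hochberg adjustment over all genes tested. WT organs were fitted over 9 libraries and the Rag-KO groups over 13. The fit was tested on simulated data whose libraries varied independently. That test does not cover deviations shared by same-numbered libraries. Named genes were all mitochondrial members, every called member, the highest and lowest of each complex, isoform pairs and the members with the widest and narrowest range, with the 2 highest and any called gene of each other list. Ndufa8, Ndufa12, Ndufaf6 and Atp5mpl were named after their values were seen. The members and lists were chosen with earlier results of these data known.

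Recovered depth was 4765122 to 6431539 reads; 5888 genes gave whole reads within 0.001, and 11179 did not. Replicate numbers were checked for pairing: deviations of same-numbered WT libraries correlated at 0.296 to 0.574 in all 9 pairs, so the block is given beside results it changes. Replicates 1 and 2 of different organs also correlated with each other (0.258 to 0.421), and replicates 3 ran against both (-0.533 to -0.313), so the numbers mainly set replicates 3 apart. The Rag-KO groups did not pair (-0.0197). Alternatives covered the pseudocount (0.1), filters, scaling, the block, the set of libraries, each library left out and a Dunnett test on RPKM. Coordinates come from GENCODE vM21 (GRCm38).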

Additional observations from a re-analysis of the deposited data

How the results depend on the processing

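Of the 6 comparisons, thymus over lung changed its count of members called most. The fit as reported called 1 (against 3.24% of all genes), quantile normalization 2 (4%), the replicate block 4 (5.08%), all 13 libraries 5 (4.64%), the Dunnett test 5 (8.01%), and the fit without WT thymus 3, WT spleen 3, WT lung 3 and Rag-KO + control 2 together 6 (8.38%). Settings chosen after seeing the data gave 10 with the replicate block and no WT spleen replicate 3 (8.72%), and 9 without that library after rescaling to non-mitochondrial genes (7.25%). Leaving out each library in turn gave 0 to 9. The block changed no other call. Without those 4 libraries together, 1 member, Cox7c, was called for Rag-KO + anti-CD3 over WT thymus, lower (1.40%).

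Upper-quartile scaling gave nuclear medians of -0.23 for thymus over spleen and 0.21 for thymus over lung, where quantile normalization gave 0.27. Without the 4 libraries together, the nuclear medians were -0.23 for Rag-KO + control over WT thymus and -0.14 for Rag-KO + anti-CD3 over Rag-KO + control, where the mitochondrial median was 0.29. The block gave a nuclear median of -0.30 and a mitochondrial median of 0.51 for Rag-KO + anti-CD3 over WT thymus, and 0.0052 and -0.19 for Rag-KO + control over WT thymus, but it places Rag-KO + control replicate 2 with the WT replicates 2, with which its deviations correlated at -0.488 to -0.311. Leaving out 1 library in turn, Rag-KO + control over WT thymus ranged from -0.23 to 0.13 (nuclear) and from -0.73 to 0.038 (mitochondrial), and Rag-KO + anti-CD3 over Rag-KO + control from -0.39 to -0.14 (nuclear) and from 0.29 to 1.02 (mitochondrial), while the mitochondrial median of Rag-KO + anti-CD3 over WT thymus ranged from 0.13 to 0.46. A lone library left in a group is assumed to vary like the others. Without mt-Atp8, mt-Nd4l and mt-Nd6 the ratio of sums was 1.94 in Rag-KO + anti-CD3 and 3.12 in WT lung. The cause of these changes was not tested. The 13 mitochondrial members were below 0 at the median for thymus over lung, and the nuclear members above 0, in all 22 alternatives. Groups of 2 or 3 libraries limit what could be called.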
